A study of Mus musculus with 6 samples.

Results

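The 10 genes described here encode AP-1 and Egr transcription factors: Fos, Fosb, Fosl1, Fosl2, Jun, Junb, Jund, Atf3, Egr1 and Egr2. They were taken by symbol from 24413 gene rows, and all 10 were measured. The RNA came from W-EGFP cells, interstitial cells of the testis of FLE-EGFP mice at E16.5. The labels explain neither W nor FLE. Cells of both groups, 10000 per sample, spent 1 hour either with SAG, an agonist of the Hedgehog signal transducer Smoothened, at 0.5 µM, or with its vehicle DMSO, with 3 libraries in each group. Both groups carry "siCnt" in their column names, which the labels do not explain, and no label states the origin of the replicates. The p-values therefore cover the spread between these particular libraries, which may be technical.

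AP-1 is a dimer of basic leucine zipper proteins: a Jun protein pairs with itself or with a Fos or ATF protein and binds the AP-1 element or the related cAMP response element (CRE). Egr proteins bind GC-rich elements through zinc fingers. Many of these genes are immediate early genes, read out within minutes of a growth factor, serum or stress signal without new protein synthesis, through serum response factor at CArG boxes and CREB at CREs. Fos and Egr1 are the archetypes of that class, whereas Jund and Fosl2 are usually transcribed more steadily.

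The 4 promoter stretches below show elements of the kind through which immediate early genes are known to be read out. They belong to Fos and Atf3, which were higher with SAG, to Egr2, which was lower, and to Jun, which was not called. Each runs over the 150 bases before a RefSeq start site on GRCm38.p6, and capitals mark the CRE-like letters TGACNTCA, the CRE core TGACG, the CArG box, the AP-1 letters TGACTCA, the Egr letters GCGNGGGCG and the TATA box letters TATAAA, on either strand. The Fos stretch is chr12:85473740-85473889 on the plus strand, the Atf3 stretch chr1:191183334-191183483 on the minus strand, the Jun stretch chr4:95052223-95052372 on the minus strand and the Egr2 stretch chr10:67537719-67537868 on the plus strand.
Fos: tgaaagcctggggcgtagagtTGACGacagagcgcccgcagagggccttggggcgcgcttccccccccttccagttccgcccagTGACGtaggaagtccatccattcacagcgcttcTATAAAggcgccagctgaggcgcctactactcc
Atf3: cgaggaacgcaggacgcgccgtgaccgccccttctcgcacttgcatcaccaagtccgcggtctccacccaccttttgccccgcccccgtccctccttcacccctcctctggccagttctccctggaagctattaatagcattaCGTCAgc
Jun: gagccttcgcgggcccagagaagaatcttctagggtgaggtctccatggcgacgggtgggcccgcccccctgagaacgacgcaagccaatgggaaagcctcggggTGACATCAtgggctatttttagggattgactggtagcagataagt
Egr2: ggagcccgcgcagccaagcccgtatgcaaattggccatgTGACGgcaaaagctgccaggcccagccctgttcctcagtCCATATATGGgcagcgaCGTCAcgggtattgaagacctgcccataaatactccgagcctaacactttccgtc

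In Fos the CRE core stood at bases -129 to -125 and -66 to -62, counted back from the start site, and the TATA box letters at -33 to -28. Atf3 had the CRE core on the other strand at -7 to -3. Jun had the CRE-like letters TGACATCA at -45 to -38. Egr2 had the CArG box CCATATATGG at -72 to -63 between 2 CRE cores, at -111 to -107 and -55 to -51. Motifs were searched from 250 bases before to 50 after each start, so an element further upstream, such as a CArG box, would be missed. Over all 32851 RefSeq windows of that extent, longer than the stretches printed, 1.63% held a CArG box, 20.8% the CRE core, 8.83% the CRE-like letters, which contain the core when N is G, 5.20% the AP-1 letters, 5.55% the Egr letters and 13.6% the TATA box letters. The Gli letters GACCACCCA were in 0.253% of windows and in none of the windows of these genes. Windows were matched for 8 of the 10 genes, those other than Fosl1 and Egr1. The CRE core also stood in Fosb, at -60 to -56, and in Junb, at -106 to -102, neither of which was called. The Fosb and Fosl2 windows each held the Egr letters GCGGGGGCG. Egr2 had 5 windows, of which the one at start 67535499 held neither a CArG box nor a CRE core. The Jund window held none of the letters searched; its RefSeq start, at 70697739 on chromosome 8, lies before the GENCODE M21 start of the gene at 70698949. A match describes letters and shows no bound factor.

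The agonist check came from the Hedgehog targets. Gli1 had signals of 0.704, 0.324 and 0.846 in DMSO and 32.6, 46.3 and 30.8 with SAG, and Ptch1 rose 2.90-fold. Signal here is the deposited value, CPM with a scaling factor for each library. Libraries held 18486396 to 25491259 reads with DMSO and 7694479 to 8804335 with SAG. SAG replicate 3 stood apart: the ribosomal RNA gene Rn45s took 1.67% of its reads and 0.326% to 0.360% in the other libraries, and it had the largest median deviation from its group mean (0.197 in log2 units, against 0.0608 to 0.145). GC-rich transcripts were relatively higher in the SAG libraries. Genes in the top GC decile (58.0% or more) deviated from those in the bottom decile (41.5% or less) by a log2 median of -0.25 to -0.18 with DMSO, and of 0.05, 0.42 and 0.22 in SAG replicates 1 to 3. Read depth and this deviation did not overlap between the groups. Nor did reads of spike-in control RNAs, at 0 in each DMSO library and 111, 54 and 1205 in SAG replicates 1 to 3. In this design a difference made by SAG cannot be told apart from a difference between the 2 sets of libraries.

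The labelled cell type was checked against markers. Nr5a1, EGFP, Pdgfra, Tcf21 and Nr2f2 were detected in all 6 libraries, while of the fetal Leydig genes Lhcgr was at 0 throughout, Cyp17a1 was at most 0.290 and Insl3 at most 1.24 in signal. Of the other fetal Leydig genes, Star had signals of 11.2 to 50.7 and Cyp11a1 of 5.61 to 33.9, and Hsd3b1 rose (0.198 ± 0.186 and 12.2 ± 16.2, SD, n = 3; limma adjusted p = 0.0193). The summed signal of these 6 genes was 116 in SAG replicate 3 and 19 to 33.3 in the other libraries. The interstitial markers Pdgfra and Tcf21 were 6.34-fold and 5.82-fold higher with SAG. Of the 8 genes on that list, which include Gli1 and Ptch1, 6 rose. Nr5a1 (mean signal 119 in DMSO and 104 with SAG, limma adjusted p = 0.16) and EGFP (98.9 and 121, limma adjusted p = 0.0961) were not called, and Nr5a1 was lower in every SAG library. Summed signal over marker lists was at most 0.231 for germ cells (4 of 6 genes at 0 in every library), 0.508 for erythroid cells (3 of 6 at 0) and 3.52 for macrophages (1 of 8 at 0). It was 30.5 to 39.3 for Sertoli cells (1 of 6 at 0) and 31.3 to 50.1 for endothelial cells. Most of each sum came from 1 gene, Sox9 (23.2 to 34.2) for Sertoli cells and Cdh5 (25.1 to 43.8) for endothelial cells. The next highest genes were Dhh, at most 3.85, and Emcn, at most 3.93. All 6 markers of peritubular myoid and smooth muscle cells fell, their summed signal going from 20396 to 21313 in DMSO to 12980 to 14196 with SAG, and 3 of 5 tested surface epithelial markers fell (summed signal 19.4 to 30.8, and 11.8 to 13.1). For these marker counts, the shares over all tested genes were 12.9% higher and 16.6% lower. In bulk RNA, fewer cells of a type and less RNA per cell cannot be told apart. The part of these markers in the results below was not tested.

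The 10 genes did not move as a block. With SAG, Fos, Atf3, Jund and Egr1 rose and Fosl1 and Egr2 fell, while Fosb, Fosl2, Jun and Junb were not called (limma, Benjamini-Hochberg adjusted p under 0.05 over 12550 tested genes). That is 4 of 10 higher and 2 of 10 lower, against 12.9% higher and 16.6% lower over all tested genes (29.6% in either direction). Libraries of the groups did not overlap for 8 of the 10 genes, 4 in each direction, where 48.0% of all tested genes did not overlap (21.2% with SAG above and 26.8% with SAG below). The median log2 fold change was 0.32 over the 10 genes and -0.03 over all tested genes. All 10 passed the filter of a mean signal of at least 1. With scaling by library total only, the median of all tested genes moved to 0.10 and the share of calls that were higher from 43.8% to 66.3%. The calls among the 10 genes were again 4 higher and 2 lower, against 19.7% higher and 10% lower over all tested genes.

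**Figure D1:**
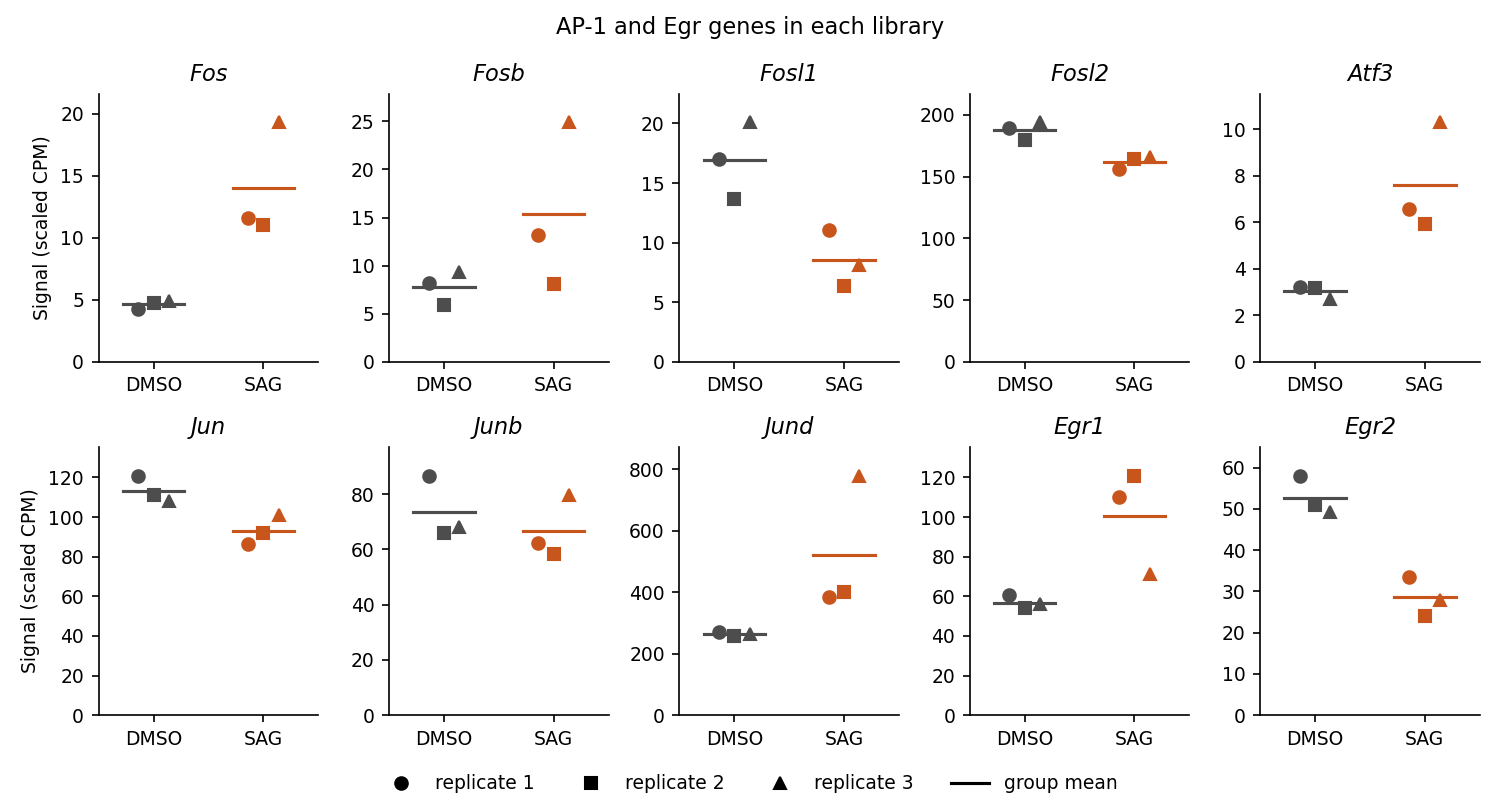
Signal (scaled CPM, linear axes from 0) of the 10 genes in the 3 DMSO and 3 SAG libraries, 1 point per library and a line at the group mean. SAG libraries lie above all DMSO libraries for Fos, Atf3, Jund and Egr1 and below them for Fosl1, Fosl2, Jun and Egr2, and SAG replicate 3 is the highest SAG library for 7 of the 10 genes (Fos, Fosb, Fosl2, Jun, Junb, Jund and Atf3) and the lowest for Egr1.

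Among the Fos genes, Fos itself, the partner of Jun in the classical AP-1 dimer, had the largest relative increase. Its signals were 4.27, 4.71 and 4.91 in DMSO and 11.6, 11 and 19.3 with SAG. Every SAG library lay above every DMSO library, and SAG replicate 3 was the highest. Fos rose 3.02-fold, from 4.63 ± 0.329 to 14.0 ± 4.59 (SD, n = 3), a log2 fold change of 1.37 (SE 0.21; limma adjusted p = 0.00166). The values rest on 87 to 103 reads per DMSO library and 104 to 150 per SAG library. The increase was 2.45-fold without SAG replicate 3. The gene has 4 exons and spans chr12:85473890-85477273 (GRCm38, plus strand).

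Fosb, which encodes a close relative of Fos, had signals of 8.24, 5.92 and 9.31 in DMSO and 13.2, 8.05 and 24.9 with SAG. SAG replicate 2 lay within the DMSO range and SAG replicate 3 well above the rest. The log2 fold change was 0.78 with a 95% interval of 0.03 to 1.53 (limma adjusted p = 0.107), so the test did not call it, and these data allow a change from almost none to a large increase. It was called without SAG replicate 2 (limma adjusted p = 0.0226) and by DESeq2 on reads recovered from the signal (adjusted p = 0.0177). Its log2 fold change was 0.38 without SAG replicate 3.

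Fosl1 encodes Fra-1, a Fos protein without the strong activation domain of Fos. It had signals of 17.0, 13.7 and 20.1 in DMSO and 11.1, 6.36 and 8.09 with SAG. All SAG libraries lay below all DMSO libraries. Fosl1 was 1.99-fold lower with SAG, at 16.9 ± 3.17 and 8.51 ± 2.40 (SD, n = 3), a log2 fold change of -0.93 (SE 0.21; limma adjusted p = 0.0102). The call was lost without DMSO replicate 3 (limma adjusted p = 0.0559). Exons of Ccdc85b overlap those of Fosl1 on the opposite strand by up to 1055 bases, and the strand setting of the counting was not given in the sources used here. Ccdc85b had signals of 66.1 to 75.4 in DMSO and 66.8, 68.6 and 152 with SAG (limma adjusted p = 0.435).

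Fosl2 encodes Fra-2 and was the most abundant of the Fos genes. Its signals were 189, 180 and 194 in DMSO and 156, 164 and 166 with SAG. The groups did not overlap, but the difference was small. The log2 fold change was -0.21 with a 95% interval of -0.41 to -0.01 (limma adjusted p = 0.111). Without SAG replicate 3 it was called lower (log2 fold change -0.23, limma adjusted p = 0.0112).

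Atf3, a stress-induced CREB-family protein that pairs with Jun proteins and often represses, was among the least abundant of the 10. Its signals were 3.23, 3.19 and 2.71 in DMSO and 6.59, 5.93 and 10.3 with SAG. Every SAG library was above every DMSO library, with SAG replicate 3 the highest, as for Fos. Atf3 rose 2.50-fold, from 3.04 ± 0.291 to 7.60 ± 2.34 (SD, n = 3), a log2 fold change of 1.06 (SE 0.22; limma adjusted p = 0.00629), on 48 to 80 reads per library. The gene spans chr1:191170296-191218039 (minus strand) in GENCODE M21. The RefSeq start used for the promoter stretch above, at 191183333, lies within this span.

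Of the 3 Jun genes, 1 was called. Jun, the founding AP-1 gene, had signals of 121, 111 and 108 in DMSO and 86.3, 92.1 and 101 with SAG. The SAG libraries lay just below the DMSO libraries. The log2 fold change was -0.28 with a 95% interval of -0.52 to -0.05 (limma adjusted p = 0.0647), which missed the threshold. Without SAG replicate 3 Jun was called lower (log2 fold change -0.34, limma adjusted p = 0.00105). It was also called lower when length and GC trends were removed from each library (log2 fold change -0.46, limma adjusted p = 0.00663).

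Junb, whose product is a weaker activator than Jun and can oppose it, had signals of 86.7, 65.8 and 67.9 in DMSO and 62.2, 58.2 and 79.5 with SAG. SAG replicate 3 lay within the DMSO range, and the other SAG libraries lay below it. The log2 fold change was -0.14 with a 95% interval of -0.48 to 0.20 (limma adjusted p = 0.513). It was called lower without SAG replicate 3 (log2 fold change -0.27, limma adjusted p = 0.0306) and with length and GC trends removed (-0.47, 0.0204). Exons of Prdx2 overlap those of Junb on the opposite strand by up to 173 bases. Prdx2 was itself lower with SAG, at 242 to 261 in DMSO and 182 to 198 with SAG (limma adjusted p = 0.0110), and the part of its reads in the Junb value was not tested.

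Jund, whose product tends to slow growth and is present in resting cells, was the most abundant of the 10. Its signals were 270, 257 and 264 in DMSO and 385, 400 and 779 with SAG. The DMSO libraries lay close together, all SAG libraries lay above them, and SAG replicate 3 was far above the other two. Jund rose 1.98-fold, from 263 ± 6.34 to 521 ± 224 (SD, n = 3), a log2 fold change of 0.90 (SE 0.23; limma adjusted p = 0.0169). Without SAG replicate 3 the increase was 1.49-fold, with a log2 fold change of 0.57 (limma adjusted p = 7.5e-08). In that setting 19.7% of all tested genes were called higher, against 12.9% with all libraries. The call was lost when any 1 DMSO library was left out (limma adjusted p = 0.0581, 0.0610 and 0.0605). The log2 fold changes were then 0.92, 0.89 and 0.90, and only 7.18% to 7.71% of all tested genes were called higher.

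Jund also had the most GC-rich transcript of the 10, at 67.1% GC, above 99.7% of tested genes, and Junb followed at 62.6%. With length and GC trends removed from each library, the Jund log2 fold change was 0.43 and was not called (limma adjusted p = 0.0540). The other genes had 51.4% to 58.5% GC. Among them, Fos, Atf3 and Egr1 were called higher and Fosl1, Jun and Egr2 lower with these trends removed. Exons of Gm11175 lie opposite those of Jund over 543 bases and exons of Junos opposite those of Jun over 232 bases; neither gene is among those analysed here.

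Egr1, whose product binds GC-rich promoters within minutes of growth factor signals, was higher with SAG. Its signals were 60.5, 54.0 and 55.9 in DMSO and 110, 121 and 71.2 with SAG. All SAG libraries lay above the DMSO libraries, but SAG replicate 3, the highest for Fos and Jund, was here the lowest. Egr1 rose 1.77-fold, from 56.8 ± 3.35 to 101 ± 26.2 (SD, n = 3), a log2 fold change of 0.78 (SE 0.18; limma adjusted p = 0.0108). The increase was 2.03-fold when SAG replicate 3 was left out.

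Egr2, known for its part in myelination and hindbrain patterning, went the other way. Its signals were 58.1, 50.9 and 49.3 in DMSO and 33.6, 24 and 28 with SAG. No libraries overlapped between the groups. Egr2 was 1.85-fold lower with SAG, at 52.7 ± 4.67 and 28.6 ± 4.81 (SD, n = 3), a log2 fold change of -0.87 (SE 0.14; limma adjusted p = 0.00210).

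**Figure D2:**
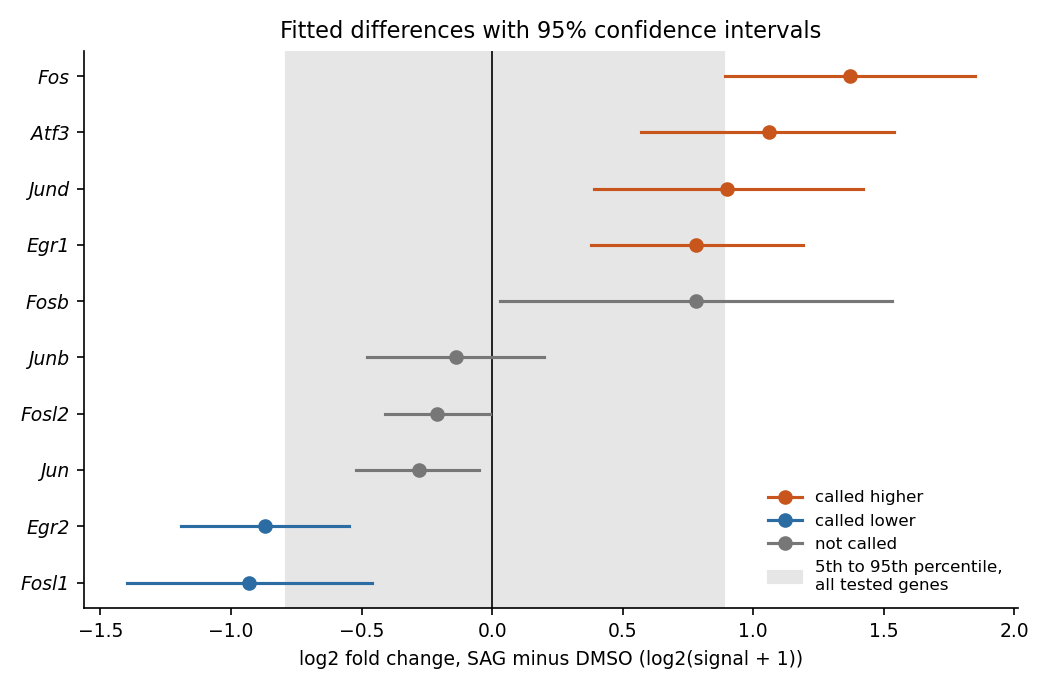
Fitted log2 fold change of log2(signal + 1), SAG minus DMSO, with 95% confidence intervals for the 10 genes over 6 libraries. Fos (1.37), Atf3, Jund and Egr1 lie above 0, Fosl1 (-0.93) and Egr2 lie below it, and the intervals of Fosb, Fosl2 and Jun come close to 0 while that of Junb spans it.

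Levels can be compared between genes only per length, here as signal per kilobase of exon in GENCODE M21. In DMSO the order was Jund (158 ± 3.80, SD, n = 3), Jun (35.6 ± 2.07), Junb (31.9 ± 5.01), Fosl2 (19.4 ± 0.721), Egr2 (15.5 ± 1.37), Egr1 (12.7 ± 0.748), Fosl1 (8.33 ± 1.56), Fos (1.97 ± 0.14), Atf3 (1.41 ± 0.135) and Fosb (1.25 ± 0.278). The ranges of Jun and Junb overlapped, as did those of Atf3 and Fosb, and both pairs changed places when the longest transcript gave the length. With SAG, Jund stood at 313 ± 134 per kilobase and Jun at 29.2 ± 2.31, and Egr1, at 22.5 ± 5.85, stood above Fosl2 (16.8 ± 0.547) on average, although their ranges overlapped and the order turned with the longest transcript as length (22.5 and 24.8). Egr2, at 8.40 ± 1.41, lay below Egr1. Fos, at 5.94 ± 1.95, stood above Fosl1 (4.19 ± 1.18) with overlapping ranges.

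The make-up of each gene group differed between the DMSO and SAG libraries. Summed signal per kilobase of the 4 Fos genes was 28.3 to 33.5 in DMSO and 26.0 to 33.4 with SAG. Within that sum Fos held 5.85%, 7.08% and 6.23% in DMSO and 17.3%, 18.0% and 24.6% with SAG. Fosl1 held 27.0%, 23.9% and 29.5% in DMSO and 19.0%, 12.0% and 11.9% with SAG. Neither share overlapped between the groups, while that of Fosl2, the largest, did (59.8% to 65.7%, and 51.5% to 65.1%). Jund held 68.1% to 71.3% of the 3 Jun genes in DMSO and 81.0% to 87.6% with SAG. With RefSeq lengths, in which Jund is longer, these were 52.4% to 56.4% and 68.7% to 78.3%. Egr1 held 44.1% to 46.2% of the Egr1 and Egr2 sum in DMSO and 65.8% to 79.2% with SAG. These shares describe the libraries and carry no test.

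**Figure D3:**
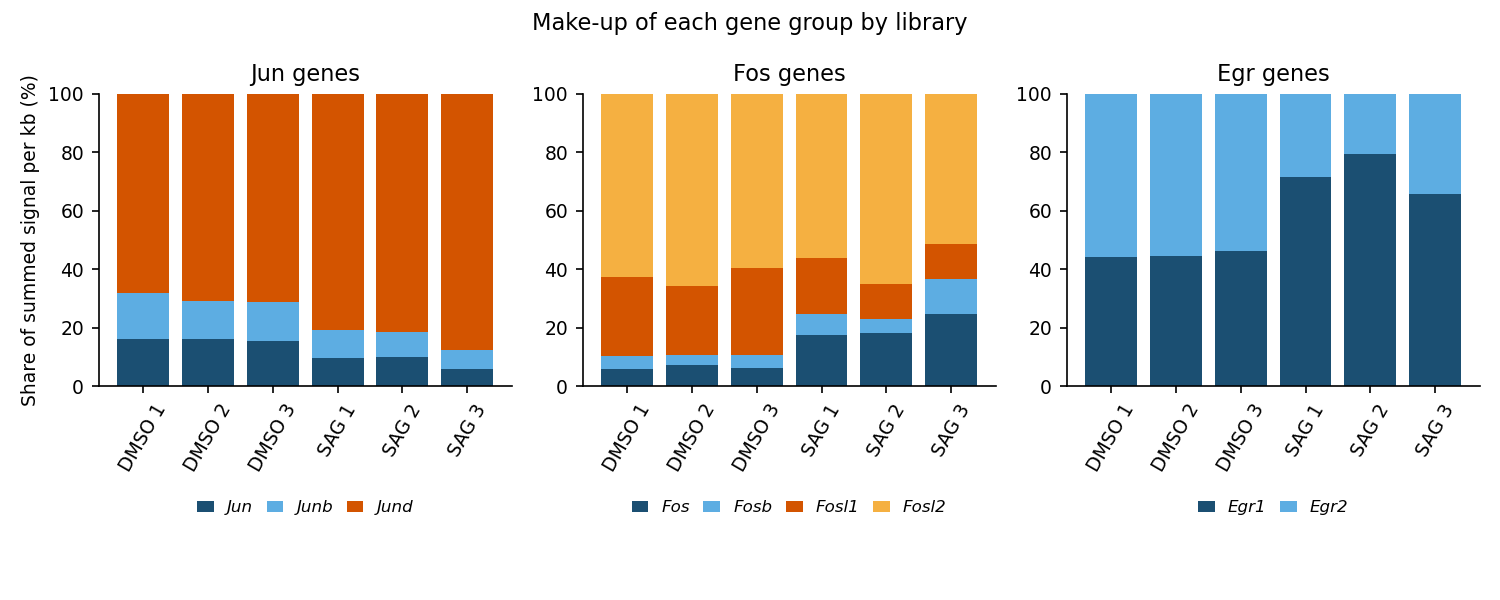
Share (%) of each gene in the summed signal per kilobase of the Fos, Jun and Egr genes, 1 stacked bar per library. Fos, Jund and Egr1 take a larger share in each SAG library than in any DMSO library, and Fosl1 takes a smaller one.

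The 10 genes kept their direction in all 18 alternative settings, but not all kept their call. Fos, Atf3, Egr1 and Egr2 were called in 18 of 18, Fosl1 in 17 and Jund in 14. Of those not called with all 6 libraries, Fosb was called in 3 settings, Jun and Junb in 2 each and Fosl2 in 1. Leaving out SAG replicate 3 gave 5 lower genes in place of 2, adding Fosl2, Jun and Junb, where 27% of all tested genes were then called lower, against 16.6% with all libraries.

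**Figure D4:**
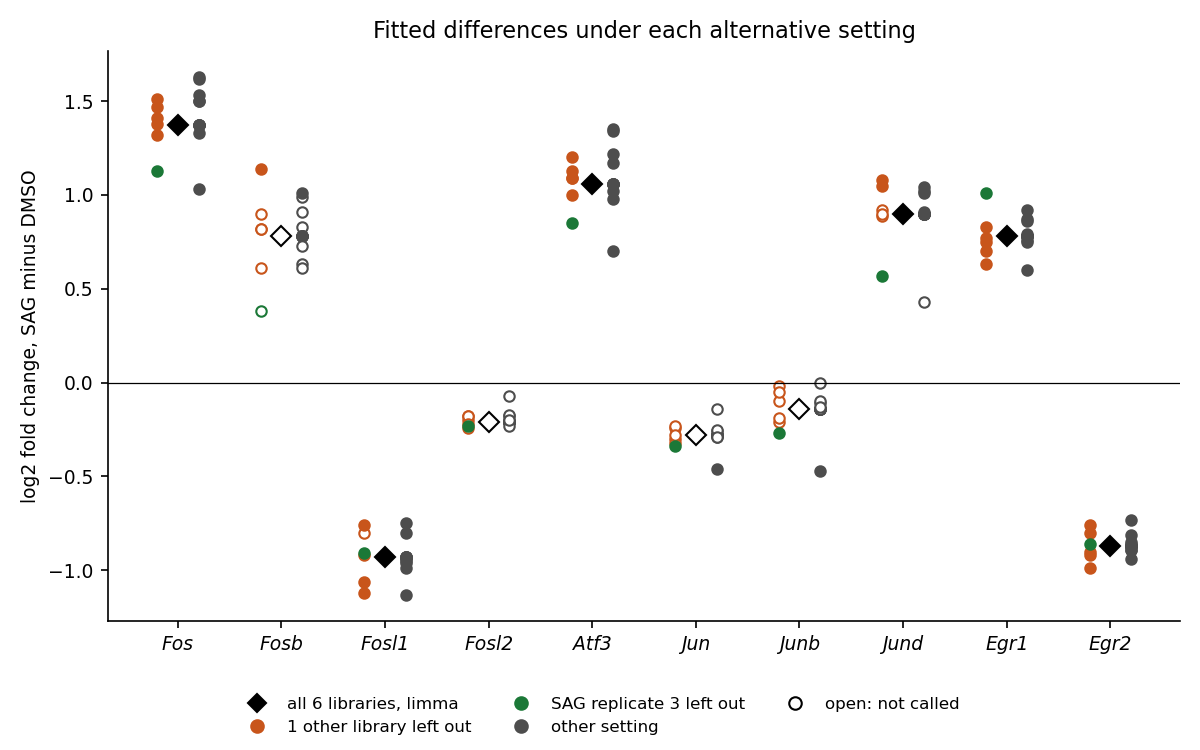
Fitted log2 fold change, SAG minus DMSO, of each gene with all 6 libraries (diamonds) and under 18 alternative settings (circles), with open symbols where the gene was not called. Every point keeps the sign of its diamond, and the Jund point without SAG replicate 3 (0.57) and with length and GC trends removed (0.43) lie well below the rest.

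Of other bZIP proteins that can join AP-1 dimers or bind related sites, 15 of 19 genes were tested, and 5 rose and 1 fell, with a median log2 fold change of 0.09. Over all tested genes 12.9% rose and 16.6% fell, with a median of -0.03. Cebpb, a bZIP factor of inflammatory and steroidogenic genes, rose 2.47-fold, from 31.5 ± 1.49 to 77.9 ± 16.8 (SD, n = 3; limma adjusted p = 0.000421), Maf 2.07-fold and Atf5 1.67-fold. Cebpd, which rose, and Mafk, which fell, are named after their values were seen; the Mafk call was lost when any 1 DMSO library was left out. Of the Egr relatives and the NAB corepressors, which bind Egr proteins and are induced by them, 4 of 5 were tested and only Nab2 was called, at 69.1 in DMSO and 84.9 with SAG (limma adjusted p = 0.0472). Nab2 was not called when any 1 DMSO library, SAG replicate 1 or SAG replicate 2 was left out. Its log2 fold change was 0.29, and 0.00 with length and GC trends removed (limma adjusted p = 0.976). Egr3 (5.08 and 5.43), Nab1 (78.7 and 77.0) and Wt1 (17.0 and 16.8) were not called.

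Other immediate early genes went in both directions: of 49 tested, 11 rose and 12 fell, where 12.9% rose and 16.6% fell over all tested genes. The median log2 fold change of this list was 0.02. Ptgs2, which encodes the inducible cyclooxygenase, was 4.41-fold lower with SAG, at 88.5 and 20.1 (limma adjusted p = 2.09e-05), and Plk2, a stress-linked kinase, was 2.65-fold lower. Zfp36l1, an RNA-binding protein that promotes mRNA decay, rose 2.81-fold, and Socs3, a feedback inhibitor of cytokine signalling, rose 3.14-fold. Without DMSO replicate 1, 7 fell, where 8.71% of all tested genes fell. Of the 6 genes for SRF and its cofactors, which act at CArG boxes, none rose and Elk3 fell (log2 fold change -0.60, limma adjusted p = 0.0148). Without SAG replicate 3, Elk3, Elk4 and Srf fell and Mkl2 rose, Srf and Mkl2 being named after their values were seen. In that setting 27% of all tested genes fell and 19.7% rose. The Elk3 call was lost when any 1 DMSO library was left out (limma adjusted p = 0.0546 to 0.0649). Of 26 MAP kinase cascade genes, through which growth factors reach these genes, 1 rose, Mapk7, and 4 fell, among them Braf, Rps6ka2 and Hras, the last being named after its value was seen. Over all tested genes 12.9% rose and 16.6% fell. The Mapk7 call was lost when any 1 DMSO library was left out and with length and GC trends removed. Without SAG replicate 3, 9 of the 26 fell, where 27% of all tested genes fell.

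On the list of known AP-1 target genes, more fell than rose. Of 19 tested among 26, 10 fell and 1 rose, where 16.6% fell and 12.9% rose over all tested genes. The median log2 fold change was -0.72 against -0.03 over all tested genes, and 10 or 11 fell in each of the alternative settings. The list was chosen with earlier results of these data known, and every setting draws on the same 6 libraries. These counts therefore describe the list and are not independent support. Timp1, an inhibitor of matrix proteases, went from 536 ± 22.2 to 228 ± 24.4 (SD, n = 3), 2.35-fold lower (limma adjusted p = 7.01e-05). With SAG the cytokine Lif was 3.30-fold lower and the secreted matrix protein Spp1 4.25-fold lower. Edn1, which encodes endothelin, rose 2.08-fold and is named after its value was seen; no AP-1 target rose without DMSO replicate 2, DMSO replicate 3 or SAG replicate 1. Of 12 tested Egr1 targets, 2 rose and 4 fell: Igf2 rose 2.39-fold and Nab2 is given above, while Thbs1 was 2.25-fold lower (5557 and 2465), and Pdgfb, Pdgfa and Fgf2, the last named after its value was seen, also fell. Without DMSO replicate 3 only 1 of these fell. Of 13 genes for AP-1 protein turnover and coregulators, Cops5 and Cul1 fell and none rose. Those 2 of 13 are near the 16.6% that fell over all tested genes. Neither was called under library total scaling, and none of the 13 fell without DMSO replicate 1 or DMSO replicate 3. Without SAG replicate 3, 5 fell, where 27% of all tested genes fell.

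**Figure D5:**
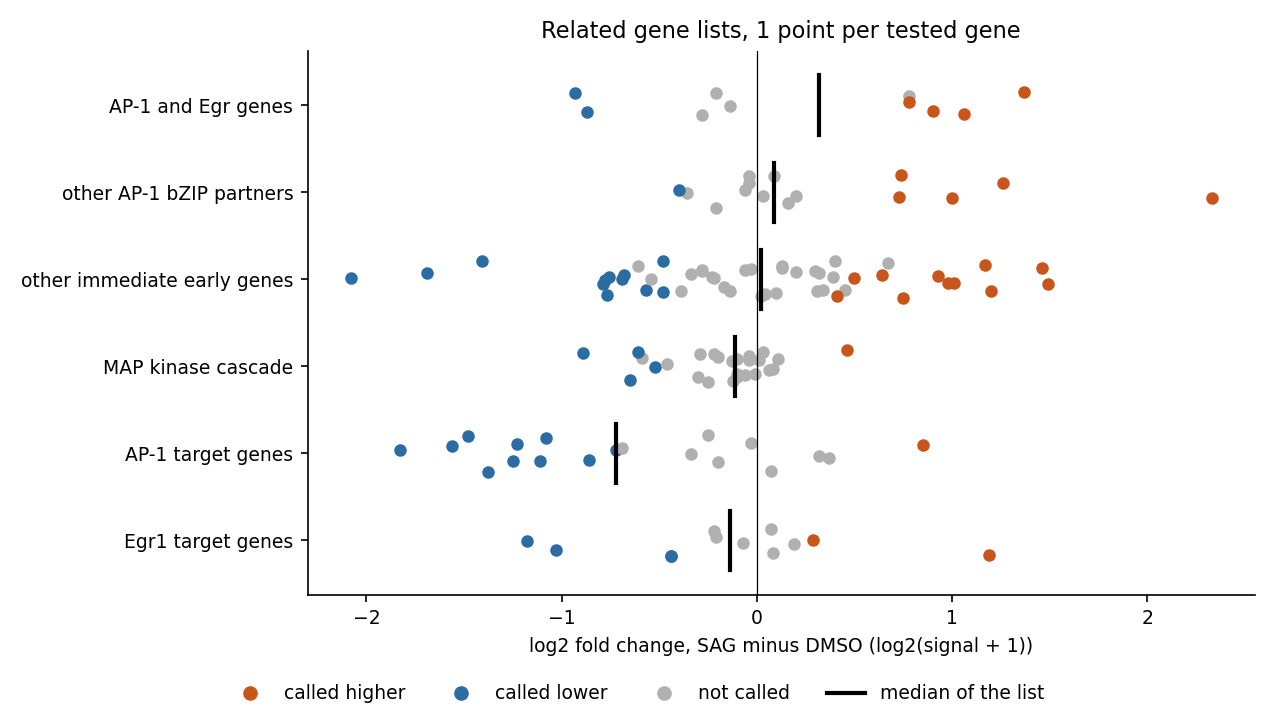
Fitted log2 fold change, SAG minus DMSO, of each tested gene in 6 gene lists, 1 point per gene coloured by its call, with a bar at the median of the list. The AP-1 and Egr genes have a median of 0.32, the AP-1 target genes one of -0.72. The lists were chosen with earlier results of these data known.

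Genes whose pattern was most like that of a member were ranked by Pearson r of log2(signal + 1) over the 6 libraries, which share their group difference and depth. For Fos these were Prrx2 (r = 1.000), Maf1 (0.998) and Akr1cl (0.998), and 499 tested genes had r above 0.95. For Jun they were Popdc2 (0.997), Rab22a (0.994) and Bhlhe41 (0.994), among 106 genes above 0.95. For Egr1 they were Snrpc (0.999), Zbtb45 (0.998) and Irf2 (0.997), among 199.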

How the data were processed

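RNA of 6 libraries, 3 with DMSO and 3 with SAG, was sequenced from 10000 cells each with a directional kit, per the labels' protocols. The submitters' processing notes name Trim Galore 0.6.4, STAR, featureCounts 2.0.0, edgeR 2.2.1, GRCm38 and mm10. Annotation, strand setting and filters were not given in these sources. The deposited values are a signal, CPM with a scaling factor for each library; in all libraries they were whole multiples of 1 read within a tolerance of 0.01, and the factors in the column sums matched TMM factors closely. The deposited table carries "siRNA" in its name, unexplained in the labels. A total of 92 spike-in rows were left out of all tests.

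The 12550 of 24413 genes whose mean signal reached 1 were tested on log2(signal + 1) with limma 3.58.1 (trend) in R 4.3.3, with Benjamini-Hochberg adjustment over all of them and a threshold of 0.05. Fold changes are ratios of mean signal; log2 fold changes are fitted on the log2(signal + 1) scale, which understates changes of low genes. Alternatives used other pseudocounts, filters and scaling, edgeR 4.0.16 and DESeq2 1.42.0 on recovered reads, thinned DMSO reads, a replicate block, each library left out, and, added after seeing the data, removal of length and GC trends. The fit was tested on simulated data with the same dispersion, 0.02, for all libraries. It recovered 20% of 1.5-fold changes and 89.4% of 2-fold changes, so a gene not called may still differ. The larger spread of the real SAG libraries was not simulated. Members and lists were chosen with earlier results of these data known. Named were all 10 members, up to 4 genes of smallest p in each other list, Gli1 and Ptch1, and the 3 genes most like Fos, Jun and Egr1; some genes this rule names are not reported here. Promoter sequences are RefSeq's on GRCm38.p6.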

Additional observations from a re-analysis of the deposited data

Results flagged for a closer look

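Spike-in control RNAs, which no test above uses, had 111, 54 and 1205 reads in SAG replicates 1, 2 and 3 and 0 reads in each DMSO library. SAG replicate 3, with the most, was also the highest SAG library for 7 of the 10 genes (Fos, Fosb, Fosl2, Jun, Junb, Jund and Atf3), and the part of this in those results was not tested.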

How the results depend on the processing

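The DMSO libraries held 2.67 times as many reads as the SAG libraries, and Fos and Atf3 rest on 48 to 150 reads per library. At an adjusted p under 0.01, 2 of the 10 genes rose and 1 fell, where 6.33% of all tested genes rose and 8.31% fell. Leaving out 1 library at a time gave 3 to 5 that rose and 1 to 5 that fell, and 7 to 17 other immediate early genes that fell. Over all tested genes 7.18% to 19.7% then rose and 8.65% to 27% fell. With length and GC trends removed, 3 of the 10 rose and 4 fell, against 12.7% and 17.3% of all tested genes. Over all tested genes 1625 rose and 2084 fell. Library total scaling gave 2477 and 1260, and 1 library left out gave 901 to 2463 that rose and 1086 to 3373 that fell, the highest without SAG replicate 3 and the lowest without DMSO replicate 3. Deviations of same-numbered libraries from their group means correlated at -0.0231, 0.0332 and -0.000173, and not every library correlated best with its own number. Each mean holds only 3 libraries, so these values cannot decide whether the replicate numbers pair the libraries. A replicate block gave 5 members that rose, Fosb being added, and 2 that fell, where 12.3% of all tested genes rose and 15.7% fell. Among genes not called, the log2 fold change of Nab1 turned from -0.03 to 0.11 under library total scaling and to 0.01 with DESeq2 and with length and GC trends removed (-0.07 to 0.04 with 1 library left out). That of Wt1 turned from -0.02 to 0.11 under library total scaling, 0.01 with edgeR, 0.02 with DESeq2 and 0.06 with thinned DMSO reads (-0.12 to 0.08 with 1 library left out). That of Egr3 was 0.06 and ranged from -0.11 to 0.21 with 1 library left out. The cause of these changes was not tested.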
